A study of Mus musculus with 4 samples.

Results

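The nuclear-encoded subunits of the mitochondrial respiratory chain and ATP synthase were followed in CD4+CD8+ double-positive thymocytes with and without a Cre-driven deletion of Usp8, which encodes a deubiquitinase of the endosomal pathway. Members were the non-control probes whose name in the array design begins as a complex I to V subunit gene does (Nduf with a, b, c, s or v; Sdha to Sdhd; Uqcr; Cox4 to Cox8; Atp5). This rule matched 128 probes of 88 genes, out of 41174 probes on the array, and 84 of the 88 genes were measured among 13061 genes tested. Of the 88 genes, 73 encode subunits present in most tissues (36 of complex I, 4 of complex II, 7 of complex III, 11 of complex IV and 15 of complex V), and all 73 were measured. A further 7 encode complex IV isoforms of particular tissues, of which 3 were measured. The other 8 share the name pattern without encoding a subunit.

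The respiratory chain passes electrons from NADH (through complex I) or succinate (through complex II) by way of ubiquinone to complex III, and through cytochrome c to complex IV, where oxygen is reduced. Complexes I, III and IV pump protons across the inner mitochondrial membrane, and complex V, the ATP synthase, uses the returning protons to make ATP. Most subunits are encoded in the nucleus and imported, while a few catalytic ones are made from mitochondrial DNA and were not analysed here. In the thymus, double-positive thymocytes are mostly small resting cells that arise from a proliferating stage.

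The study compared 2 genotypes with 2 arrays each. USP8ff mice carry loxP-flanked Usp8 alleles without Cre and served as the control, and USP8ff_CD4Cre mice carry the same alleles with Cre driven by Cd4 regulatory sequences. All mice were untreated, 6 to 12 weeks old, and sex-matched littermates, per the labels. Each array held RNA of sorted cells pooled from 2 mice, 8 mice in all, so p-values measure the spread between pools. No group carried Cre without the floxed alleles, so the effect of Cre and that of the deletion cannot be told apart. Because the samples are bulk RNA, fewer cells of a type and less RNA per cell cannot be told apart either.

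Signals are given as log2 of the processed intensity relative to the 75th percentile of the same array, so that 0 is the brightness of a spot at that percentile. Differences are USP8ff_CD4Cre minus USP8ff on the same scale. Per array, 45.0% to 48.9% of probes were well above background by the scanner's own flag, and no spot was saturated. Usp8 itself read -0.23 and -0.40 on the USP8ff arrays and -1.03 and -1.23 on the USP8ff_CD4Cre arrays, a difference of -0.81 ± 0.13 (SE) with an adjusted p of 0.60 in limma. The labels do not say whether the Usp8 probe lies in the floxed part, so this value does not measure the extent of deletion. All 15 markers of double-positive thymocytes were measured, with a median difference of -0.06, a range from -0.33 to 0.16 and 11 negative. Both USP8ff_CD4Cre arrays lay below both controls for 7 of them and above for 3, against 16.3% and 24.3% of all genes. Rag2, a recombinase gene, had the lowest difference (-0.33 ± 0.13, unadjusted p 0.0498 in limma). Markers of macrophages and dendritic cells summed to 3.68 and 3.93 in USP8ff and to 2.72 and 2.87 in USP8ff_CD4Cre (sums of linear signals, in units of the 75th percentile, over 7 of 16 genes that were measured). Of that list, Csf1r, Itgam and Itgax were not well above background on both arrays of either genotype. The 7 measured genes had a median difference of -0.19 and 6 were negative, 3 of them with an unadjusted p under 0.05: Ctss (-1.96 ± 0.21), Mpeg1 (-1.09 ± 0.23) and Cd74 (-0.45 ± 0.13). Among all 13061 genes, 452 were lower at that level in limma. Of 12 NK and innate T cell markers 5 were measured, with a median of -0.86. Nkg7 (-2.09 ± 0.18), Il2rb (-2.02 ± 0.34) and Prf1 (-0.86 ± 0.21) were lower at an unadjusted p under 0.05 in limma, against the same 452 of 13061 genes. The other 2 were positive, Gzma (0.42 ± 0.20) among them, and for each of these both USP8ff_CD4Cre arrays lay above both controls. Sums over the 5 measured genes were 4.28 and 4.37 on the control arrays against 3.94 and 5.29 in USP8ff_CD4Cre. Medians were -0.42 for B cell markers (2 of 7 measured), 0.56 for erythroid markers (2 of 10) and -0.10 for thymic stroma markers (3 of 10). The genotypes overlapped for both B cell and both erythroid genes. Erythroid genes stood high on USP8ff_CD4Cre replicate 2 alone (median deviation 0.86, against -0.35 and -0.21 in USP8ff and -0.30 in USP8ff_CD4Cre replicate 1). For the stroma genes both USP8ff_CD4Cre arrays lay below both controls for 2 and above for 1. Of them, 1 was lower at an unadjusted p under 0.05 in limma. The smallest adjusted p of these lists was 0.29. The part of these cells in the subunit values was not tested.

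Subunit genes read slightly brighter in the USP8ff_CD4Cre pools in most cases, by amounts that passed no single gene's test after adjustment over all genes. The difference was positive for 70 of 73 genes, with a median of 0.17 (12.5% more signal) and a range from -0.05 to 0.42. Quantile normalization gave a median of 0.09. Over all 13061 genes the median was 0.02 and 54.8% of differences were positive. No subunit gene differed by 1.5-fold in its point estimate, and the highest upper bound of a 95% interval was 1.0 on the log2 scale, for Cox7c. No subunit gene was called at an adjusted p under 0.05, where limma called 0% of all genes. The smallest adjusted p was 0.66 among subunits and 0.29 over all genes.

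At an unadjusted p under 0.05 in limma, 4 subunit genes (5.48%) were higher and 0 lower in USP8ff_CD4Cre, against 3.97% of all genes that were higher at that level, so this share lay near the background. The number was 0 with median scaling, with no filter on dim probes, without USP8ff replicate 2 and without USP8ff_CD4Cre replicate 2. With an eBayes trend it was 17 (23.3%) against 4.98% of all genes, and that share was above the background. The 2 arrays of USP8ff_CD4Cre both exceeded the 2 of USP8ff for 54 subunit genes (74.0%), against 24.3% of all genes. Both lay below USP8ff for 0 subunit genes, against 16.3% of all genes. In the remaining 19 the groups overlapped.

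The sum of linear signals over the 73 genes was 3.25e+03 and 3.16e+03 in USP8ff, and 3.53e+03 and 3.63e+03 in USP8ff_CD4Cre. Set against its own mean over the 4 arrays, the median subunit stood at -0.05 and -0.11 in USP8ff replicates 1 and 2, and at 0.07 and 0.11 in USP8ff_CD4Cre replicates 1 and 2. The lowest array was thus USP8ff replicate 2 and the highest USP8ff_CD4Cre replicate 2. A list of 32 mitotic and DNA replication genes ranked the arrays the same way, at -0.13, -0.33, 0.04 and 0.43, with sums of 795, 714, 896 and 1.13e+03 and a median difference of 0.49. Cytosolic ribosomal, mitochondrial ribosomal and mitochondrial import genes also ranked the arrays this way, while proteasome and complex II genes did not. Taken singly, 25 of the 73 subunit genes followed this order, against 28 of the 32 mitotic and replication genes and 1324 of all 13061 genes. The part of proliferation in the subunit values was not tested.

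**Figure D1:**
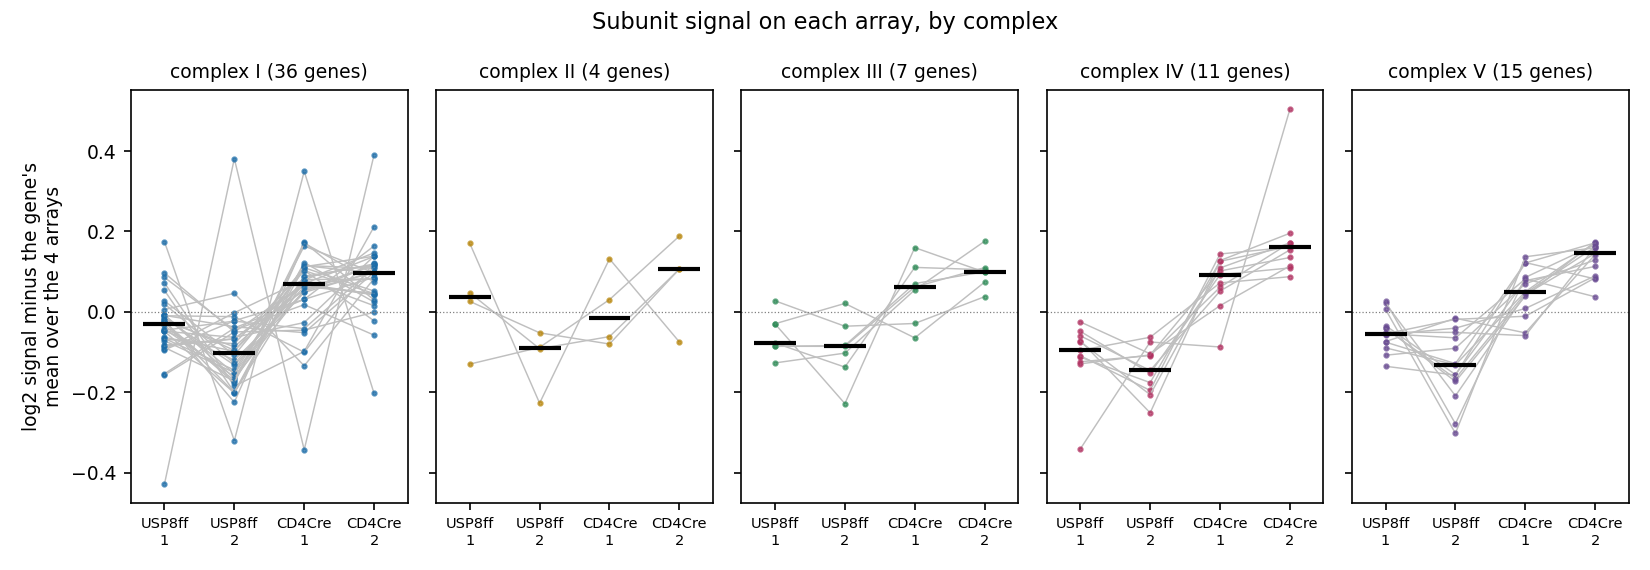
Log2 signal of each subunit gene minus its own mean over the 4 arrays (vertical axis), for each array (horizontal axis, CD4Cre standing for USP8ff_CD4Cre) in 1 panel per complex; grey lines join the values of a gene and black bars are medians. In complex IV the medians are -0.10 and -0.15 in USP8ff and 0.09 and 0.16 in USP8ff_CD4Cre, while those of complex II (0.04, -0.09, -0.02 and 0.11) do not separate the genotypes.

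Complex IV, cytochrome c oxidase, had the highest median difference of the complexes, 0.24 (17.8% more signal), and all 11 of its genes were positive. The pools did not overlap for 10 of them, where 24.3% of all genes were higher in USP8ff_CD4Cre without overlap. An unadjusted p under 0.05 in limma was found for 3 of them, against 3.97% of all genes higher at that level. Cox6b1, a subunit on the intermembrane side, read 0.57 and 0.48 in USP8ff and 0.82 and 0.84 in USP8ff_CD4Cre. Both USP8ff_CD4Cre arrays were above both controls, by 0.30 ± 0.11 (SE), with an unadjusted p of 0.033 and an adjusted p of 0.66 in limma. Cox8a, a small membrane-spanning subunit, read 5.85 and 5.67 against 6.05 and 6.12, a difference of 0.32 ± 0.12. Its pools did not overlap either, with an unadjusted p of 0.040 and an adjusted p of 0.67 in limma. Cox5b, a zinc-binding subunit on the matrix side, read 5.52 and 5.46 against 5.76 and 5.80, a difference of 0.29 ± 0.10 with an unadjusted p of 0.039 in limma.

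Cox7a2, another small membrane subunit, read 5.26 and 5.13 in USP8ff and 5.44 and 5.51 in USP8ff_CD4Cre, and its second probe, which overlaps the first, gave 0.24 beside 0.28 ± 0.11. Ndufa4, first described in complex I and now assigned to complex IV, read 4.79 and 4.81 against 5.02 and 5.06, a difference of 0.24 ± 0.10. The genotypes did not overlap for either gene. Cox7c had the highest point estimate of all subunits, 0.42, and also a wide error of 0.23. It read 2.83 and 3.09 on the control arrays against 3.08 and 3.67, so the groups overlapped and 1 array, USP8ff_CD4Cre replicate 2, stood above the rest. Without that array the difference was 0.12, and without USP8ff_CD4Cre replicate 1 it was 0.71.

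Complex V, the ATP synthase, had a median difference of 0.20 (14.8%), and a median of 0.12 under quantile normalization. Of its genes, 15 of 15 were positive and 13 without overlap (24.3% of all genes were higher without overlap). Atp5k, subunit e of the membrane part, read 3.09 and 3.07 in USP8ff and 3.35 and 3.40 in USP8ff_CD4Cre. Its difference was 0.29 ± 0.10, and it was the only gene of the complex with an unadjusted p under 0.05 (0.035 in limma, adjusted p 0.67). Atp5l, subunit g, which sits beside subunit e where ATP synthase forms dimers, read 4.11 and 3.81 against 4.25 and 4.27. Its groups were also apart, with a difference of 0.30 ± 0.14, and the lowest array was USP8ff replicate 2. The difference was 0.14 without that array and 0.45 without USP8ff replicate 1.

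In the peripheral stalk, which holds the head still while the rotor turns, Atp5j (factor 6) differed by 0.22 ± 0.11, from 5.75 and 5.71 to 5.89 and 6.01. In the membrane part Atp5j2 (subunit f) differed by 0.20 ± 0.10, from 4.96 and 4.98 to 5.14 and 5.20. In the central stalk, Atp5e (subunit epsilon) differed by 0.20 ± 0.10, from 5.90 and 5.85 to 6.10 and 6.06. For these 3 genes both USP8ff_CD4Cre arrays were above both controls. The 5 genes of the head and central stalk had a median difference of 0.10, with the catalytic beta subunit Atp5b at 0.07 ± 0.11 and the alpha subunit Atp5a1 at 0.09 ± 0.12, and the 10 genes of the membrane part and peripheral stalk one of 0.21. This grouping, like those by role in complexes I and III, was made after the values were seen, and the difference between the groups was not tested.

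The c-ring of the rotor is built from 1 mature protein encoded by 3 genes that differ in their import sequences. Atp5g1 read 3.34 and 3.11 in USP8ff and 3.37 and 3.47 in USP8ff_CD4Cre, a difference of 0.19 ± 0.13. Atp5g2 read 4.95 and 4.65 against 5.01 and 5.09, a difference of 0.25 ± 0.14. Without USP8ff replicate 2 these were 0.07 and 0.10, and without USP8ff replicate 1 they were 0.30 and 0.40. Atp5g3 read 7.67 and 7.66 against 7.81 and 7.76, a difference of 0.12 ± 0.10, which turned to -0.03 under quantile normalization. The genotypes were apart for all 3, by the narrowest gap in Atp5g1, and no adjusted p was below 0.70.

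The proximal promoters of the subunits with an unadjusted p under 0.05 are shown to set these genes beside factors known for respiratory chain promoters: NRF-1, ETS factors (which include NRF-2) and YY1. Each line gives the 100 bases before the annotated start, 5′ to 3′ on the coding strand, from RefSeq on GRCm38.p6, with searched letters in capitals. They lie at chr5:108434400-108434499 (Atp5k, minus strand), chr7:30626115-30626214 (Cox6b1, minus strand), chr19:7217617-7217716 (Cox8a, minus strand) and chr1:36691387-36691486 (Cox5b, plus strand).
Atp5k: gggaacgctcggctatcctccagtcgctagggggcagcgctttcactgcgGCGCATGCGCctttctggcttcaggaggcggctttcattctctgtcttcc
Cox6b1: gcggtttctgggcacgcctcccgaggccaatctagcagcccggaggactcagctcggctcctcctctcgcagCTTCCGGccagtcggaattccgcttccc
Cox8a: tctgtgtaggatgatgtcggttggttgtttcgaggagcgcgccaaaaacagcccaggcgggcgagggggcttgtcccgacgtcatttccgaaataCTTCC
Cox5b: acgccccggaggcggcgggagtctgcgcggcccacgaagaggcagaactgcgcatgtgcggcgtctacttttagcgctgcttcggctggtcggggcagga

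In Atp5k the NRF-1 letters overlap on both strands, and in Cox6b1 the ETS letters stand on the reverse strand. In Cox8a an ETS match begins within the last bases shown and runs past the start. Downstream of the start, within the searched window, Atp5k also held an ETS match and Cox8a a further one. Cox5b held none of the searched letters in its window. Promoters were matched for 62 of the 73 subunit genes, in a window from 250 bases before the start to 50 after it, on both strands. GCGCATGC (NRF-1) was in 16.1% of them against 2.80% of all 27025 promoters and 3.61% of those of protein-coding genes. CCGGAAG (ETS) was in 24.2% against 9.12% and 11.9%, and GCCATNTTG (YY1) in 17.7% against 2.65% and 3.05%. At least 1 of the 3 motifs was in 30 promoters, whose genes had a median difference of 0.17 (range 0.02 to 0.32), and the 32 genes without one had a median of 0.18.

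Complex I, NADH dehydrogenase, had a median difference of 0.15 (10.8%), with 33 of 36 genes positive and 0 with an unadjusted p under 0.05. The genotypes did not overlap for 25 of the positive genes (24.3% of all genes were higher without overlap). Under quantile normalization the median was 0.08. Ndufa2, an accessory subunit of the NADH-oxidising part, read 4.13 and 4.05 in USP8ff and 4.38 and 4.32 in USP8ff_CD4Cre. Its difference of 0.26 ± 0.11 had the smallest p of the complex, 0.058 unadjusted and 0.67 adjusted in limma. Ndufc2, in the membrane arm, read 4.78 and 4.62 against 4.94 and 4.96, a difference of 0.25 ± 0.11. Both genotypes' pools stayed apart for these genes.

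Ndufa1, a small membrane subunit, read 5.31 and 5.24 in USP8ff and 5.50 and 5.49 in USP8ff_CD4Cre, and both of its probes gave 0.22. Ndufb10, also in the membrane arm, read 6.48 and 6.40 against 6.66 and 6.64, a difference of 0.21 ± 0.10. Ndufs8, which carries iron-sulfur clusters in the arm that leads electrons to ubiquinone, read 1.33 and 1.13 against 1.52 and 1.43, a difference of 0.25 ± 0.12. In all 3 both USP8ff_CD4Cre arrays exceeded both controls.

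The 7 nuclear core subunits of complex I, which bind NADH, flavin or the iron-sulfur clusters, had a median difference of 0.07, and 5 of 7 were positive. Besides Ndufs8, the iron-sulfur subunit Ndufs7 (0.17 ± 0.11) and the flavin-binding Ndufv1 (0.11 ± 0.11) were apart between genotypes, while others, Ndufs1 and Ndufv2 among them, overlapped. Ndufs1, an iron-sulfur subunit, read 4.22 and 4.08 in USP8ff and 4.08 and 4.12 in USP8ff_CD4Cre, a difference of -0.05 ± 0.11. Neither genotype had both of its Ndufs1 arrays below those of the other. The 29 accessory subunits had a median of 0.15 with 28 positive, the exception being Ndufs4 at -0.04 ± 0.11 (4.82 and 4.69 against 4.75 and 4.68), a subunit known for its part in assembling the NADH-oxidising end.

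Complex III, the cytochrome bc1 complex, had a median difference of 0.17 (12.6%), and a median of 0.06 under quantile normalization. Of its genes, 7 of 7 were positive and 5 without overlap (24.3% of all genes were higher without overlap). Among the small subunits, Uqcr (now Uqcr11) read 4.75 and 4.55 in USP8ff and 4.94 and 4.88 in USP8ff_CD4Cre, a difference of 0.26 ± 0.12. Uqcrb, next to the ubiquinone site of cytochrome b, read 3.82 and 3.84 against 4.0 and 4.12, a difference of 0.23 ± 0.11. Uqcrq differed by 0.22 ± 0.10 and Uqcrh, the hinge protein at cytochrome c1, by 0.17 ± 0.10 (7.60 on both control arrays, 7.76 and 7.79 in USP8ff_CD4Cre). The genotypes were apart for all 4 genes, but no adjusted p was below 0.70.

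Of the core proteins, Uqcrc1 read 5.47 on both USP8ff arrays and 5.61 and 5.66 in USP8ff_CD4Cre, a difference of 0.17 ± 0.10. Uqcrc2 read 5.33 and 5.38 against 5.30 and 5.44, a difference of 0.01 ± 0.11. Uqcrfs1, the Rieske iron-sulfur protein, read 4.74 and 4.67 against 4.68 and 4.75, also a difference of 0.01 ± 0.11. The last 2 overlapped, and their sign turned under quantile normalization, to -0.08 and -0.07. Cyc1 (0.02 ± 0.11) and Uqcr10 (0.24 ± 0.11), which belong to the complex but carry other names on the array, were outside the rule.

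Complex II, succinate dehydrogenase, is shared with the TCA cycle. Of its genes, 4 of 4 were positive and 1 was without overlap, a share near the 24.3% of all genes that were higher without overlap. It had the lowest median of the complexes, 0.05 (3.57%). That median was -0.02 without USP8ff replicate 2, 0.16 without USP8ff replicate 1 and 0.12 without USP8ff_CD4Cre replicate 1, so neither its direction nor its size held. Sdhd, a membrane anchor, read 4.13 and 4.17 in USP8ff and 4.29 and 4.45 in USP8ff_CD4Cre, a difference of 0.22 ± 0.11 with an unadjusted p of 0.11 and an adjusted p of 0.70 in limma. The other anchor, Sdhc, read 2.37 and 2.23 against 2.26 and 2.43, a difference of 0.04 ± 0.12. Only Sdhd had both USP8ff_CD4Cre arrays above the controls. Sdha, the flavoprotein that oxidises succinate, read 1.95 and 1.88 against 1.85 and 2.03, a difference of 0.03 ± 0.12, and its 3 probes gave 0.03 to 0.08. Sdhb, the iron-sulfur subunit, read 3.52 and 3.12 against 3.48 and 3.27, a difference of 0.06 ± 0.17. In Sdhb the arrays of replicate 1 were the brighter ones in both genotypes.

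**Figure D2:**
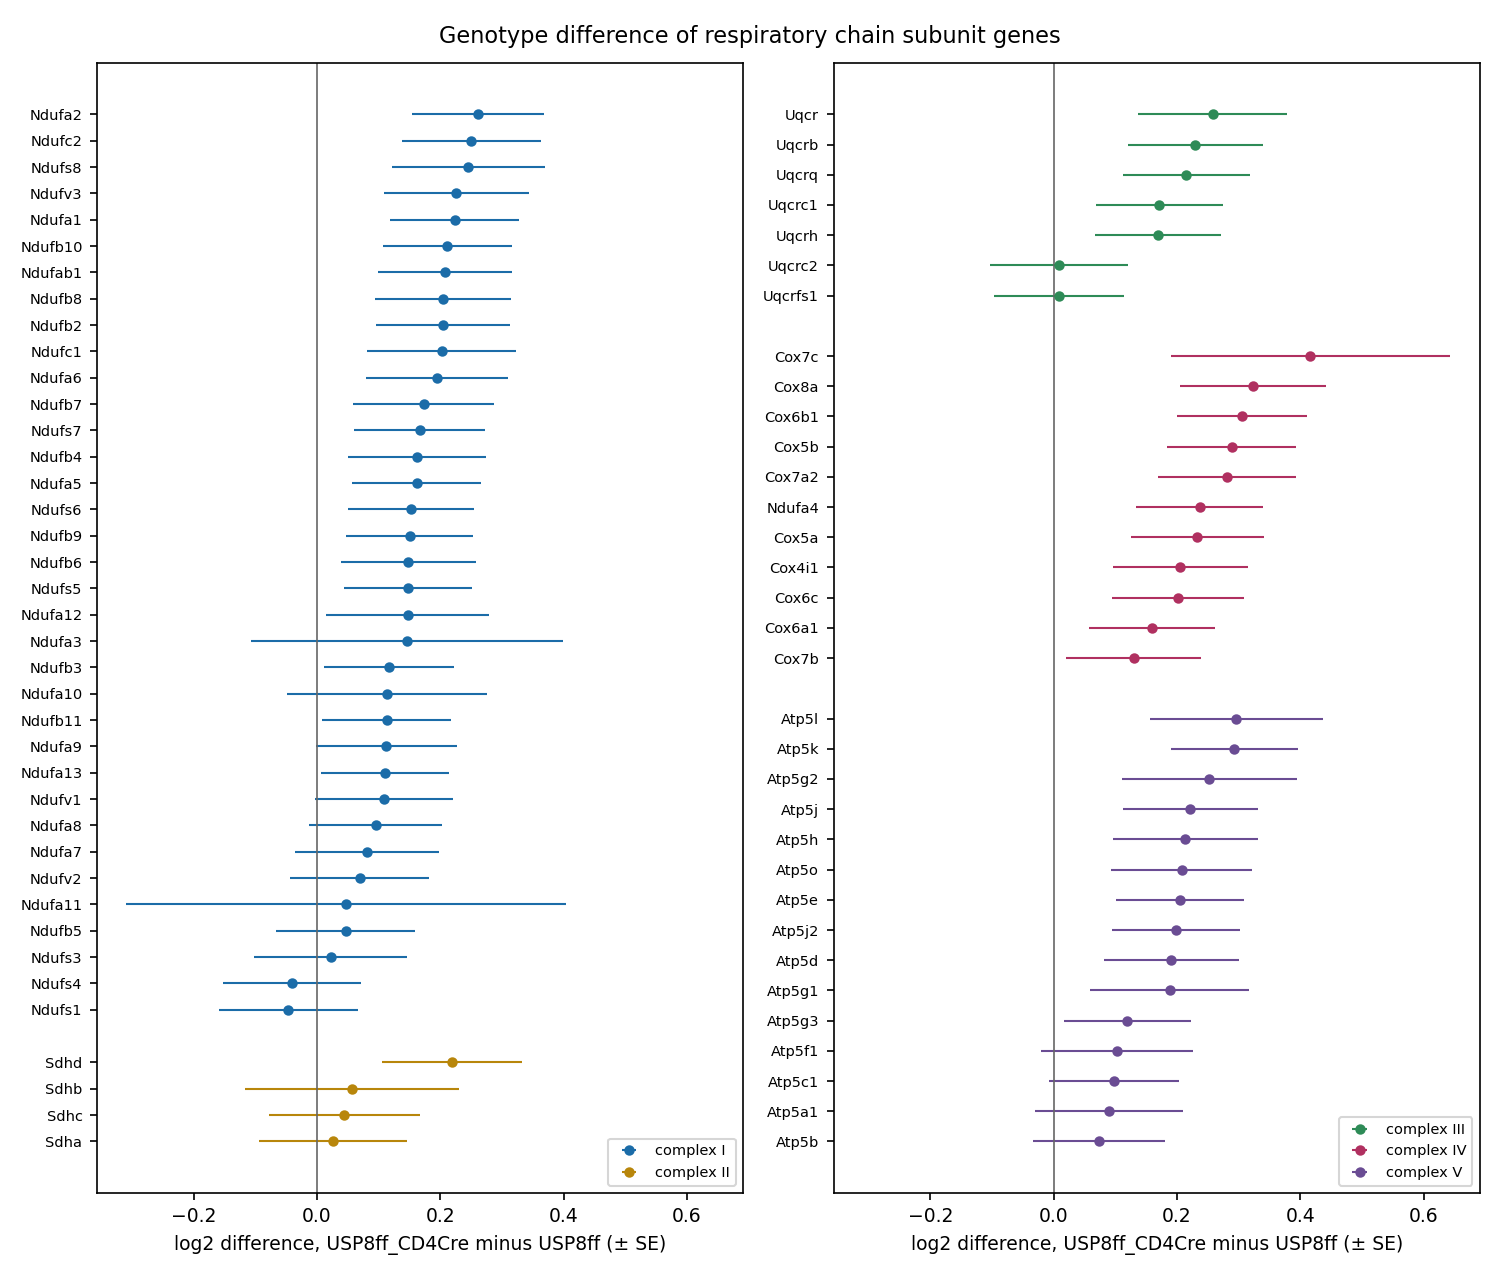
Log2 difference of 72 of the 73 subunit genes, USP8ff_CD4Cre minus USP8ff (horizontal axis), with its standard error as a bar, 1 gene per line and 1 colour per complex. Points run from -0.05 (Ndufs1) to 0.42 (Cox7c), and the standard errors are widest for Ndufa11, Ndufa3 and Cox7c.

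Several complex IV subunits have an isoform for heart and skeletal muscle, testis or lung besides the common one. The isoforms Cox4i2, Cox7b2, Cox8b and Cox8c were not well above background on any array, while the partners Cox4i1 (0.21 ± 0.11), Cox7b (0.13 ± 0.11) and Cox8a were on all 4. Cox6a2, the heart and skeletal muscle form, was above background but dim, at -1.19 and -1.86 in USP8ff and -0.86 and -1.43 in USP8ff_CD4Cre, with a difference of 0.38 ± 0.29. Its partner Cox6a1 read 8.26 and 8.29 against 8.43 and 8.44, a difference of 0.16 ± 0.10. Cox7a1, the muscle form beside Cox7a2, read 0.37 and 0.05 against 0.43 and 0.30, a difference of 0.16 ± 0.15. Cox6b2, the testis form, read 0.55 and -0.43 in USP8ff and 0.41 and -0.88 in USP8ff_CD4Cre, a difference of -0.29 ± 0.51. The genotypes overlapped for all 3 measured isoforms.

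Of the 8 genes that match the name pattern without encoding a subunit, 5 were positive and the median was 0.03. The complex I assembly factors had differences of 0.02 (Ndufaf1), 0.27 (Ndufaf2), -0.10 (Ndufaf3) and 0.18 (Ndufaf4). Cox7a2l, which helps join complexes III and IV into supercomplexes, read 4.03 and 3.75 in USP8ff and 3.84 and 4.03 in USP8ff_CD4Cre, a difference of 0.04 ± 0.15. Atp5s (now Dmac2l) had -0.22 ± 0.25, Atp5sl (now Dmac2), a complex I assembly protein, -0.17 ± 0.10, and Cox4nb (now Emc8), of the endoplasmic reticulum membrane complex, 0.23 ± 0.12. Of these last 3, Atp5sl was lower and Cox4nb higher in both USP8ff_CD4Cre pools.

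Of the subunit genes, 22 had several kept probes, and for 18 of them all kept probes shared a sign. The exceptions were Ndufv3, Uqcrq, Atp5j2 and Ndufa7. The Ndufv3 probe used, at mm9 chr17:31658570-31658629, gave 0.23 ± 0.12 and the other probes, at chr17:31664691-31664750 and chr17:31665148-31665207, gave -0.06 ± 0.14 and -0.05 ± 0.11. The Uqcrq probe used, at mm9 chr11:53242471-53242530, gave 0.22 and the dimmer one, at chr11:53243452-53243511, gave -0.15 ± 0.15. The first 30 bases of each 60-base probe are shown in the order of these positions, to tell them apart.
Ndufv3, used: gtctacagagtcagagaagagtgcaaagga
Ndufv3, second: agtttctgcaaaagagaaggccaaggtcca
Ndufv3, last: gtgccagaaggaggctcccaggtccaggag
Uqcrq, used: tgcctctgaaagacccttctctgggagagg
Uqcrq, second: tttgaacctcttattaaaagtagtttctgg

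For Atp5j2 the dimmer probe gave -0.01 ± 0.15, and for Ndufa7 the probes gave 0.08 ± 0.12 and -0.01 ± 0.13. The Ndufv3 probes read 3.26, 3.08, 3.36 and 3.43 for the one used, but 0.83, 0.81, 0.62 and 0.90 for the second and 1.98, 1.93, 1.86 and 1.96 for the last (USP8ff replicates 1 and 2, then USP8ff_CD4Cre replicates 1 and 2). The genotypes were apart on the first and overlapped on the others. The difference between probes of a gene was not tested, and for Ndufa7 it is within the standard errors. Probes of 1 sign could also differ, though by less than in Ndufv3 and Uqcrq, as in Ndufab1 (0.21 ± 0.11 for the probe used, 0.18 ± 0.19 and 0.01 ± 0.19 for the others).

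Bright genes as a whole leaned the same way as the subunits. Among genes other than subunits the share of positive differences was 53.6% at mean signals of 0 to 2, 61.1% at 2 to 4, 66.7% at 4 to 6 and 82.4% at 6 to 9, and their medians were 0.01, 0.04, 0.05 and 0.11. The subunits in the same ranges numbered 6, 17, 36 and 14, with medians of 0.08, 0.15, 0.20 and 0.15. The subunit median was above that of the other genes in each range, by the least at the brightest, and this was not tested.

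**Figure D3:**
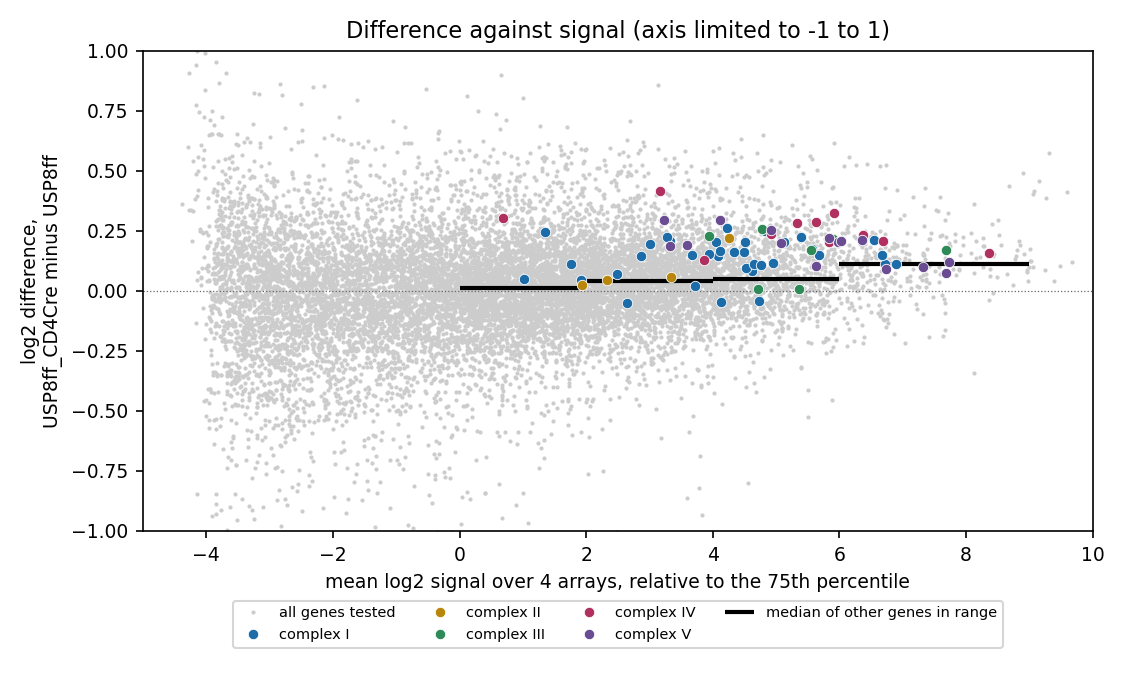
Log2 difference, USP8ff_CD4Cre minus USP8ff (vertical axis, limited to -1 to 1), against the mean log2 signal over the 4 arrays relative to the 75th percentile (horizontal axis), with all genes tested in grey, subunits coloured by complex, and black lines for the median of the other genes in 4 signal ranges. Those medians go from 0.01 to 0.11 with signal, and 70 of the 73 subunit points lie above 0.

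Other mitochondrial gene lists differed from each other in their medians. Of 24 genes for protein import into mitochondria, 22 were positive with a median of 0.18. For 13 the genotypes did not overlap (24.3% of all genes were higher without overlap). Hspa9, the chaperone of the import motor, read 3.44 and 3.34 in USP8ff and 3.71 and 3.83 in USP8ff_CD4Cre (0.38 ± 0.11), and Timm13, an intermembrane space chaperone, differed by 0.28 ± 0.10. Of 78 mitochondrial ribosomal protein genes 69 were positive, with a median of 0.11. Of 47 measured assembly factors of the complexes 35 were positive, with a median of 0.04, and the smallest p-values belonged to Ndufaf2 and to Uqcc2 (0.28 ± 0.12), an assembly factor of complex III. No gene of these lists was called.

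The TCA cycle genes, which supply NADH and succinate, had a median of 0.08 with 15 of 18 positive. Their smallest p-values belonged to Idh2 (-0.30 ± 0.15), the NADP-dependent isocitrate dehydrogenase, and Fh1 (0.26 ± 0.14), fumarase. The 16 measured electron carrier and ubiquinone synthesis genes had a median of 0.01 with 8 positive, among them Gpd2 (0.23 ± 0.11), the glycerol phosphate dehydrogenase of the inner membrane. Coq8a, needed for ubiquinone synthesis, read -0.39 and -0.69 in USP8ff and -0.85 and -1.20 in USP8ff_CD4Cre, a difference of -0.49 ± 0.17 with an unadjusted p of 0.038 and an adjusted p of 0.67 in limma. The 18 measured regulators of mitochondrial transcription and biogenesis had a median of 0.05 with 11 positive, among them Pprc1 (0.21 ± 0.10), a coactivator, and not Mterf2 (-0.29 ± 0.12). For Coq8a, Idh2 and Mterf2 both USP8ff_CD4Cre arrays lay below both controls.

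Lists of other abundant housekeeping genes also leaned positive. The median was 0.15 over 89 cytosolic ribosomal protein genes (80 positive, 54 higher without overlap) and 0.12 over 38 proteasome subunit genes (35 positive, 21 higher without overlap). The subunits' median of 0.17 was close to both, and the difference from them was not tested. Among all genes 24.3% were higher without overlap.

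**Figure D4:**
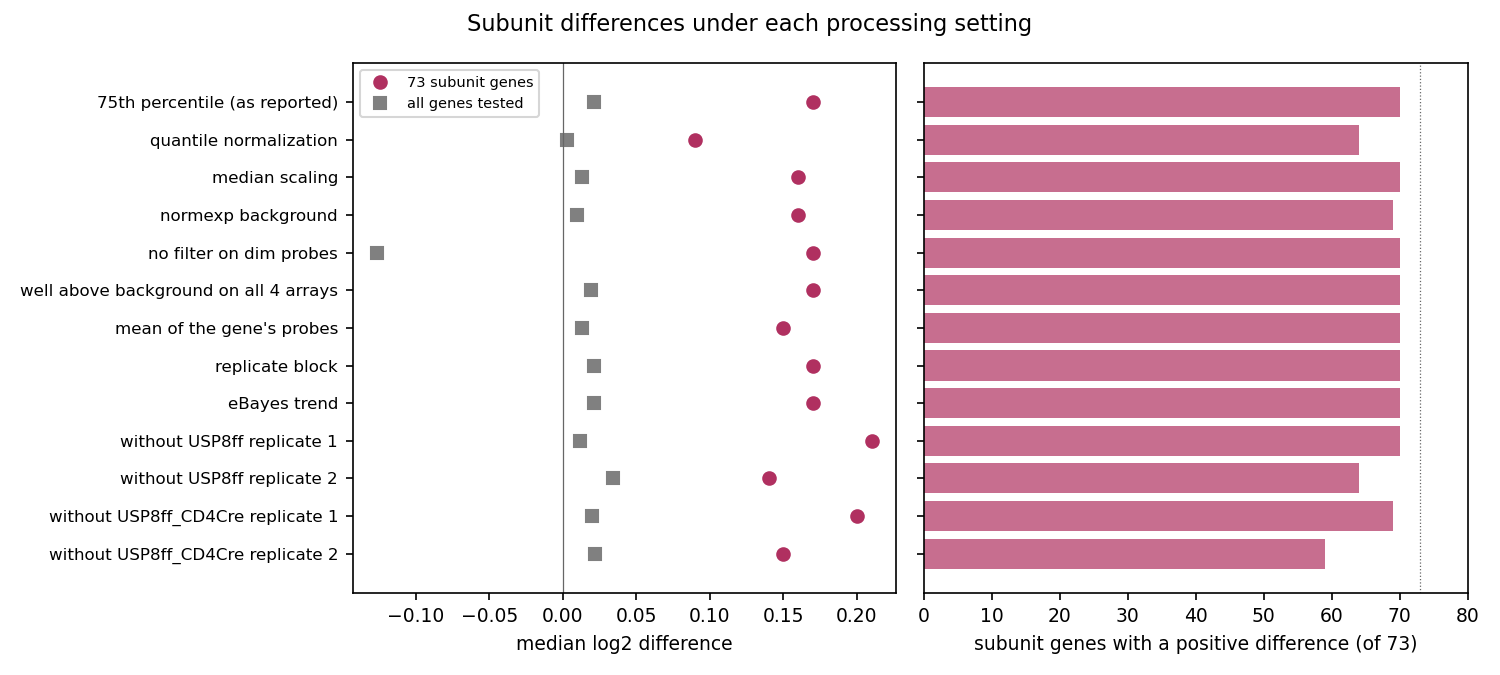
Median log2 difference, USP8ff_CD4Cre minus USP8ff, of the 73 subunit genes (circles) and of all genes tested (squares) at left, and the number of subunit genes with a positive difference at right, under the reported processing and 12 alternatives. Circles run from 0.09 under quantile normalization to 0.21 without USP8ff replicate 1, and the number of positive genes from 59 to 70.

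The direction of the subunit median held under all 12 alternatives, while its size differed between them. It was 0.09 with 64 positive genes under quantile normalization, where the median of all genes was 0.003. Without USP8ff_CD4Cre replicate 2 the median was 0.15 and 59 genes were positive, and without USP8ff replicate 2 it was 0.14 with 64 positive. No gene was called under any of them. None of the members was among the 78 probes of the authors' deposited table.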

How the data were processed

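Per the labels, cRNA from 500 ng of RNA of sorted double-positive thymocytes was labelled with Cy3 for 1-colour Agilent arrays. The deposited scanner files hold spot intensities, background-subtracted and detrended by Feature Extraction 10.7.3.1 per the file headers, which also name mm9 and place all 4 arrays on 1 slide. The authors' deposited table gives an absolute fold and a p-value for 78 probes, whose method the sources used here do not give. Another deposited table with 4 columns of per-sample values that match no label was not used.

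The deposited intensities were taken to log2 and expressed relative to each array's own 75th percentile, taken over its 43379 non-control spots. Outlier spots were left out (17 of 41174 probes lost). A probe was kept if both arrays of either genotype were well above background (19038 probes, 46.2%), and the kept probe with the highest mean stood for its gene. All 116 kept member probes were well above background on all 4 arrays, and 12 were not kept. A model with genotype alone was fitted over 13061 genes with limma 3.58.1 under R 4.3.3 (lmFit, then eBayes without a trend) with Benjamini-Hochberg adjustment. The fit was checked on simulated data whose changes were all larger than any subunit difference. Detection of changes as small as those of the subunits was not checked. Intervals use the moderated degrees of freedom of that fit. The number of arrays limits the precision.

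Genes were named by rule: Usp8, the 5 smallest p-values per complex, tissue isoform sets, genes whose probes differed in sign, and the 2 smallest p-values of each list of other mitochondrial genes. Cox7c, Ndufa3, Ndufa11, Ndufb5, Ndufab1, Atp5a1, Atp5b, Uqcrc2, Uqcrfs1, Ndufs1, Ndufs3, Ndufs4, Ndufs7, Ndufv1 and Ndufv2 were named after their values were seen. So were the cell type marker genes that are given singly, such as Rag2, Ctss, Mpeg1, Cd74, Nkg7, Il2rb, Prf1 and Gzma. The members and lists were chosen with earlier results of these data known. The alternatives changed the scaling (quantile, median), the background (normexp with an offset of 50), the filter (none, or above background on all 4 arrays), the probe rule (mean over a gene's probes) or the model (a replicate block, an eBayes trend), or left out each array in turn. The values of 1 subunit gene enter the counts and medians and are not reported here singly. Figures were drawn with matplotlib 3.10.9.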

Additional observations from a re-analysis of the deposited data

How the results depend on the processing

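Limma called 0 genes, and 0 subunit genes, under all 12 alternatives, with smallest adjusted p-values among subunits from 0.45 to 1. Quantile normalization gave medians of 0.09 for all subunits, 0.08 for complex I, 0.06 for III, 0.17 for IV and 0.12 for V, and the mean of a gene's probes gave 0.14 for complex III. Leaving out 1 array gave 0.14 to 0.21 for all subunits, -0.02 to 0.16 for complex II, 0.16 to 0.20 for III, 0.19 to 0.29 for IV and 0.13 to 0.24 for V. Here the lone array of a genotype is assumed to vary like the others. Of 51 named subunit and isoform genes, 35 kept their sign throughout and 16 did not. Under quantile normalization the sign turned for Atp5a1 (-0.0048), Atp5b (-0.05), Atp5g3 (-0.03), Ndufs3 (-0.04), Uqcrc2 (-0.08) and Uqcrfs1 (-0.07), and with normexp for Uqcrfs1 (-0.03). With 1 array left out, differences ran from -0.01 to 0.19 for Atp5a1, -0.94 to 0.35 for Cox6b2, -0.36 to 0.45 for Ndufa11, -0.13 to 0.42 for Ndufa3, -0.03 to 0.12 for Ndufb5 and -0.12 to 0.03 for Ndufs1. They ran from -0.09 to 0.13 for Ndufs3, -0.11 to 0.03 for Ndufs4, -0.01 to 0.15 for Ndufv2, -0.07 to 0.12 for Sdha, -0.14 to 0.26 for Sdhb, -0.04 to 0.13 for Sdhc, -0.06 to 0.08 for Uqcrc2 and -0.02 to 0.04 for Uqcrfs1. Of 37 named genes whose sign held with each array left out, 15 moved by over 1.5 times, among them Cox6a2 (0.05 to 0.71), Ndufs8 (0.14 to 0.35), Ndufv1 (0.03 to 0.18), Ndufv3 (0.14 to 0.31), Sdhd (0.14 to 0.30) and Uqcr (0.16 to 0.36). The cause was not tested. With no filter on dim probes the median of all genes was -0.126 over 28471 genes, and that of the subunits 0.17.

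The labels do not say that a replicate number ties samples together, and deviations of same-numbered arrays correlated at 0.32 over genes. With the number as a replicate block, 0 genes were called, the subunit median stayed at 0.17, and genes with an unadjusted p under 0.05 numbered 1338 against 970. The 95% interval excluded 0 for 4 of the 73 subunits, the same 4 that had an unadjusted p under 0.05 in limma. They are 5.48% of the subunits, near the 3.97% of all genes that were higher at that level. With 2 pools per genotype most differences of this size cannot be separated from 0.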

Other observations

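In a few members the arrays with the same replicate number resembled each other more than the arrays of a genotype did. Ndufa11, a membrane arm subunit of complex I, read 0.59 in USP8ff replicate 1 and 0.68 in USP8ff_CD4Cre replicate 1, but 1.40 and 1.41 in replicates 2. Its second kept probe, which overlaps the first, read 0.03 and 0.23 against 0.75 and 0.89. Ndufa3, another complex I membrane subunit, went the other way, with 3.04 and 3.21 in replicates 1 and 2.54 and 2.66 in replicates 2. Cox6b2, the testis form of a complex IV subunit, also read higher in replicates 1. These genes had the widest standard errors of their groups (0.36, 0.25 and 0.51), were chosen after their values were seen, and were not tested for this pattern.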
